A study of Mus musculus with 21 samples.

Results

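The genes described here are 9 markers used for alveolar fibroblasts and for lipid-storing lung fibroblasts (lipofibroblasts): Ces1d, Itga8, Limch1, Npnt, Inmt, Lpl, Apoe, Plin2 and Pparg. They were chosen by name, with earlier results of these data known. They are the rows whose mouse Ensembl identifiers map to those symbols, and all 9 were found among the 52636 genes of the count table. They were followed in 21 libraries of stranded total RNA from mouse lung fibroblasts labelled Ly6C+/Sca-1+, in 7 treatment groups of 3 libraries. The groups were DMSO, CHIR, TGFb1, TGFb1 + DMSO, TGFb1 + CHIR, TGFb1 + IL1b and TGFb1 + TNF. TGFb1 is a cytokine that drives fibroblasts towards matrix production, IL1b and TNF are inflammatory cytokines, and DMSO is a solvent. CHIR is named by the labels in that form only and commonly stands for a GSK3 inhibitor that stabilises beta-catenin. IL1b and TNF were given only together with TGFb1, so that 5 of the 7 groups, all but DMSO and CHIR, shared TGFb1. Strain, age, sex, dose, time and the number of animals or cultures behind the libraries are not stated in the labels. The p-values therefore measure the spread between these libraries only, which may be technical.

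Alveolar fibroblasts line the gas-exchange surface of the lung, and those that hold lipid droplets pass lipid and retinoids to the surfactant-making epithelium. PPARG, a nuclear receptor that pairs with RXR, is the main activator of fat-handling genes, and lipoprotein lipase, apolipoprotein E and the droplet coat protein perilipin 2 act in the uptake, transport and storage of lipid. Integrin alpha8 pairs with integrin beta1 into a receptor for the matrix protein nephronectin, the product of Npnt. In fibrosis models, TGFb1 is known to move lipofibroblasts towards a matrix-producing state with loss of lipid genes.

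The libraries held 19796379 to 29276382 counts. Levels are given as CPM, counts per 1000000 on library sizes scaled by TMM (a method that corrects for composition). Of 21 other alveolar fibroblast genes in a fixed list, 13 had enough counts to be tested, and Tcf21, Meox2 and Col13a1, which define that cell type, had 0 counts in every library. Fgfr4, another of them, had 1 to 6 counts per group. These genes do not bear out the label alveolar, but others of the list were present. In DMSO the 21 genes summed to 1055 CPM on average, 731 CPM of it Macf1, with 5 of them at 0. The list as a whole does not settle the label, and the 9 genes are called here by their names. The 7 adventitial fibroblast genes summed to 1798 ± 64.6 CPM in DMSO (mean ± SD, n = 3, as throughout), most of it Serpinf1 (1564 ± 68.1) and Col14a1 (198 ± 2.41). The others were lower, with Cd34 at 20.8 ± 1.82, Clec3b at 11 ± 0.574, Dpt at 2.17 ± 0.607, Pi16 at 1.9 ± 0.151 and Dpp4 at 0.0721 ± 0.00779 CPM. The sorted surface genes (Ly6a, Ly6c1, Ly6c2) summed to 192 ± 6.52 CPM in DMSO and to 8.53 ± 0.859 CPM in TGFb1 + CHIR. The 7 mural and smooth muscle genes summed to 519 to 1284 CPM over the groups, lowest in TGFb1 + TNF and highest in CHIR. Most of that was Pdgfrb, which fibroblasts also express, except in TGFb1 + TNF where Cspg4 led with 273 ± 6.21 CPM, and Cox4i2 was at 0 in 4 groups. The lists of other cell types had lower sums. The 8 macrophage genes summed to 2.26 to 6.33 CPM over the groups, with Ptprc, Adgre1 and Marco at 0 in all of them. The 6 adipocyte genes summed to 0.225 to 5.67 CPM, most of it Fabp4. The 7 endothelial genes summed to 5.47 to 23.9 CPM, highest in TGFb1 + CHIR where Kdr led, with Cldn5 at 0 in all groups. The 7 alveolar type 2 epithelial genes summed to 9.89 to 50.9 CPM, nearly all of it Abca3, with Sftpa1 at 0 in all groups. The 5 mesothelial genes summed to 9.41 to 31.7 CPM, most of it Wt1. The part of such cells in the results below was not tested.

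In the GENCODE annotation of GRCm38, all 9 are protein-coding genes. Ces1d (ENSMUSG00000056973) lies at chr8:93166068-93197838 on the minus strand, in a cluster of related carboxylesterase genes. Of its 50-base transcript windows, 1.08% also occur in Ces1b, Ces1f or Ces1g. Itga8 (ENSMUSG00000026768) lies at chr2:12106632-12301922 on the minus strand and overlaps the antisense gene E030013I19Rik, which had 2 counts over all 21 libraries. Limch1 (ENSMUSG00000037736) lies at chr5:66745827-67057158 on the plus strand and contains the pseudogene Gm6517, which had 4841 counts over all libraries. The counts of Gm6517 were 689 in DMSO and 833 in TGFb1 + DMSO, without the fall of Limch1 with TGFb1 given below. With CHIR they were lower, 368 in CHIR and 487 in TGFb1 + CHIR, and Limch1 was lower with CHIR too. The part of Gm6517 in the Limch1 values was not tested. Npnt (ENSMUSG00000040998) lies at chr3:132881745-132950291 and Inmt (ENSMUSG00000003477) at chr6:55170626-55175043, both on the minus strand. Lpl (ENSMUSG00000015568) lies at chr8:68880491-68907448 on the plus strand, Apoe (ENSMUSG00000002985) at chr7:19696109-19699188 on the minus strand and Plin2 (ENSMUSG00000028494) at chr4:86648386-86670060 on the minus strand. Pparg (ENSMUSG00000000440) lies at chr6:115360951-115490399 on the plus strand, and the antisense gene within it, Gm44079, had 0 counts.

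Promoter windows from 250 bases before to 50 bases after a RefSeq start (build GRCm38.p6) were matched for 7 of the 9 genes, all but Ces1d and Lpl. Where a gene had several, the one nearest its annotated 5′ end was used. Each window was searched on both strands for AGGTCA (the half-site read by PPARG with RXR and by other nuclear receptors), for its direct repeat (AGGTCA, any 1 base and AGGTCA again), for CAGAC (the SMAD box of TGFb signalling), for CTTTGA (the TCF/LEF core of Wnt signalling), for TGANTCA (AP-1) and for GGG, any 2 bases and TTTCC (NF-kB). Each match of the direct repeat also holds AGGTCA. The 5 windows that follow belong to the members that the results turn on. They are those of Inmt and Apoe, which fell furthest of the matched genes with TGFb1, and of Npnt, Plin2 and Pparg, which departed from that pattern. They are written 5′ to 3′ on the gene's strand, with each match in capitals. A match on the other strand reads TGACCT for AGGTCA and GTCTG for CAGAC.
Inmt, chr6:55174941-55175240, minus strand: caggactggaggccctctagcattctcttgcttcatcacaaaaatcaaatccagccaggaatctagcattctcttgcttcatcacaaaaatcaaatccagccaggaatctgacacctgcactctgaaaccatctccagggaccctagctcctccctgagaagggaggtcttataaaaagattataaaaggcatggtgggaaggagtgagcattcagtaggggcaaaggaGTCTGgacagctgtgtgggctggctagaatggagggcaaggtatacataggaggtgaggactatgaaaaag
Apoe, chr7:19699139-19699438, minus strand: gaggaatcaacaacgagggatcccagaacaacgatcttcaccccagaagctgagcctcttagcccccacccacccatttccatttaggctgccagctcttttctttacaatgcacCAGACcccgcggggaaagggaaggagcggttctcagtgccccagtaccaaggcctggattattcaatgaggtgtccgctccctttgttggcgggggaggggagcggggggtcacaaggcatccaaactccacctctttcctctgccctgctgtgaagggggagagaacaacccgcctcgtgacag
Npnt, chr3:132950242-132950541, minus strand: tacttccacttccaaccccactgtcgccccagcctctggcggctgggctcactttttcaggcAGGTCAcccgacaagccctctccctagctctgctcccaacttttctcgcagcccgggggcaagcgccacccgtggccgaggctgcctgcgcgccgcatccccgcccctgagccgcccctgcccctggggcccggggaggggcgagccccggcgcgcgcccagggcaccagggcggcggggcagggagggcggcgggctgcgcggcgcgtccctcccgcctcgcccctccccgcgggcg
Plin2, chr4:86670010-86670309, minus strand: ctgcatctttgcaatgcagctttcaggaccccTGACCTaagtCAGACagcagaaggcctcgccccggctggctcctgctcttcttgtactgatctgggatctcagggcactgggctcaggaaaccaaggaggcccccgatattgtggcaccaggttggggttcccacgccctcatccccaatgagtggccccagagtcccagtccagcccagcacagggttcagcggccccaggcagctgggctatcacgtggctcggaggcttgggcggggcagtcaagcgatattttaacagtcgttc
Pparg, chr6:115360894-115361193, plus strand: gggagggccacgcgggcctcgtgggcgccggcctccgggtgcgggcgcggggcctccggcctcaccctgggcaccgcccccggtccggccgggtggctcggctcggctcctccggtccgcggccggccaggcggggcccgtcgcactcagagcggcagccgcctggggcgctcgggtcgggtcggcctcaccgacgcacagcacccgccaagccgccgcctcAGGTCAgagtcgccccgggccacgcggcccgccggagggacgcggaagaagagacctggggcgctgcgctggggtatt

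AGGTCA occurred once each in the windows of Npnt (188 bases before the start), Plin2 (218 bases before) and Pparg (28 bases before), and in those of 16.3% of all 32817 promoters in the table. CAGAC occurred once each in Inmt (21 bases before the start), Apoe (135 bases before), Plin2 (208 bases before) and Limch1 (41 bases after), and in 49.6% of all promoters. No match to the direct repeat (0.0396% of all promoters), TCF/LEF (16%), AP-1 (7.81%) or NF-kB (1.63%) letters was found in the 7 windows nearest the annotated starts. These are matches of letters only, and binding was not measured.

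Per kilobase of exon, Lpl was the highest of the 9 in DMSO, at 59.4 ± 0.461 CPM. It was followed by Apoe at 32.2 ± 2.58, Plin2 at 25.4 ± 0.441 and Inmt at 25.2 ± 1.76 CPM per kilobase. Pparg had 6.28 ± 0.226, Ces1d 4.59 ± 0.412 and Limch1 4.03 ± 0.307 CPM per kilobase, and Itga8 with 1.53 ± 0.251 and Npnt with 1.13 ± 0.245 were the lowest. With TGFb1 + DMSO the order changed: Plin2 led with 39.2 ± 2.36 CPM per kilobase, against 11.2 ± 0.336 for Lpl. The plot of levels by group shows the 9 genes in all libraries.

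**Figure D1:**
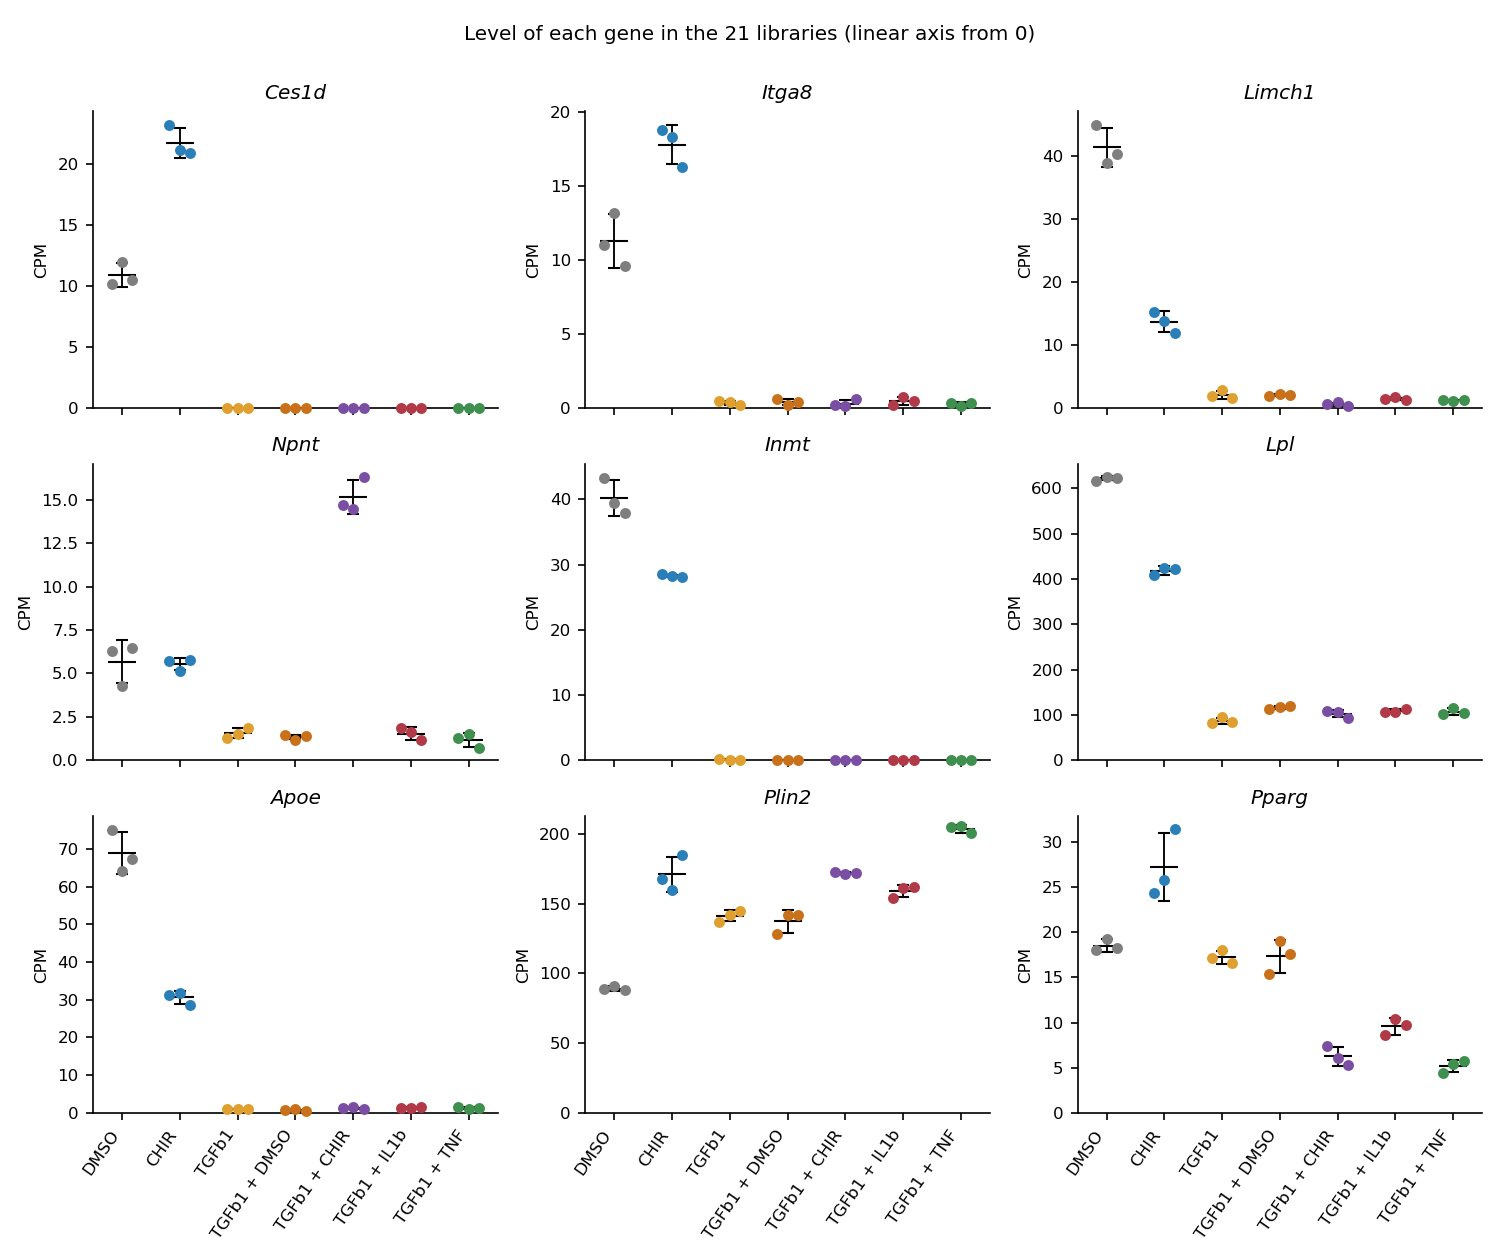
Level of each gene in CPM (y axis, linear and from 0, 1 panel per gene) in the 7 treatment groups (x axis). Each point is 1 library, and bars show the mean ± SD of 3 libraries. Ces1d, Itga8, Limch1, Inmt, Lpl and Apoe stand higher in every DMSO and CHIR library than in any library with TGFb1, Npnt reaches 14.5 to 16.3 CPM in TGFb1 + CHIR, and Plin2 is lowest in DMSO.

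The first comparison, TGFb1 + DMSO against DMSO, asks what TGFb1 did in the presence of the solvent. Among the 9 genes, 7 were lower, Plin2 was higher and Pparg stayed short of the threshold (edgeR quasi-likelihood F-test, adjusted p under 0.05, over the 16197 genes tested). Of all genes tested, 62.0% were called, 30.7% higher and 31.3% lower. The median log2 fold change of the 9 was -4.37 against -0.02 over all genes tested, and it was also -4.37 with genes near 0 set at their bound or ratio. Ces1d, Itga8, Limch1, Inmt and Apoe, 5 of the 9, fell at least 16-fold, which 1.96% of the genes tested did. Because the members were chosen with earlier results of these data known, these contrasts with all genes are descriptions only. Markers of other fibroblast states fell here too. Of the 6 fibroblast markers, 4 fell and 2 rose (median -1.01). Of the 6 adventitial genes tested, 4 fell and 1 rose (median -1.41), and the 2 sorted surface genes tested fell (median -1.35). The part of these markers in the values of the 9 genes was not tested. In bulk RNA, fewer cells of a type and less RNA per cell cannot be told apart.

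The steepest falls were those of the enzymes Ces1d and Inmt. Ces1d, a carboxylesterase that hydrolyses lipid esters, stood at 10.2, 12 and 10.5 CPM in the DMSO libraries (299, 357 and 258 counts). It had 0 counts in each of the 15 libraries with TGFb1. Against a floor of 3 counts over the TGFb1 + DMSO group, it was at least 299-fold lower (adjusted p = 9.63e-24). Inmt, which methylates tryptamine and other small amines, stood at 43.3, 39.5 and 37.9 CPM in DMSO and had 0, 2 and 1 counts in TGFb1 + DMSO. The ratio of the summed counts was 1109-fold lower, with a 95% counting interval of 379 to 5383 (adjusted p = 9.5e-34). No library with TGFb1 came above 4 counts of Inmt, so the groups with and without TGFb1 were far apart for both enzymes. The bound and the interval account for counting error alone.

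The close relatives of Ces1d went the same way. Ces1g fell from 37.5 ± 1.74 to 0.931 ± 0.287 CPM (log2 fold change -5.34 ± 0.13 (SE, as throughout), adjusted p = 7.67e-38). Ces1f went from 1.82 ± 0.64 CPM to 0 counts in the group. Beside the 1.08% of Ces1d, 4.01% of the 50-base windows of Itga8 also occur in E030013I19Rik, 2.57% of those of Plin2 in Gm12551, 1.4% of those of Lpl and 0.572% of those of Limch1 in several other genes, and none of those of the other 4 members. Some reads of these 5 genes may have been counted elsewhere or left out, which gene counts cannot show.

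The integrin subunit and its ligand fell by different amounts. Itga8 stood at 11.0, 13.2 and 9.57 CPM in DMSO and at 0.582, 0.17 and 0.366 CPM in TGFb1 + DMSO, which is 5 to 15 counts a library. The log2 fold change was -4.93 ± 0.29 (adjusted p = 1.49e-19). Npnt stood at 6.29, 4.26 and 6.49 CPM in DMSO and at 1.44, 1.19 and 1.39 CPM in TGFb1 + DMSO, and so kept 23.6% of its DMSO level where Itga8 kept 3.31%. Its log2 fold change was -2.08 ± 0.21 (adjusted p = 2.27e-12), and the groups did not overlap for either gene. Itgb1, the beta subunit that pairs with Itga8 and was looked up after its values were seen, rose from 1207 ± 31.6 to 2551 ± 37.1 CPM (log2 fold change 1.08 ± 0.036, adjusted p = 1.84e-31). Over the fixed list of partners of the pair (other matrix ligands, Itgb1 and the latent TGFb1 that integrin alpha8 can bind), 6 of 7 genes tested rose and 1 fell. Examples that rose were the matrix proteins Spp1 (osteopontin, 3.53 ± 0.1) and Tnc (tenascin C, 1.75 ± 0.078) and the cytokine Tgfb1 itself (1.47 ± 0.047), all as log2 fold changes with adjusted p of 3.6e-12 or less. The gene that fell was Egfl6, a relative of Npnt, with 264 counts in DMSO and 0 in TGFb1 + DMSO.

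Limch1, whose product binds and activates non-muscle myosin, stood at 44.8, 38.8 and 40.3 CPM in DMSO and at 1.82, 2.11 and 2.01 CPM in TGFb1 + DMSO. The log2 fold change was -4.37 ± 0.15 (adjusted p = 2.32e-30), which is 20.7-fold lower. Every TGFb1 + DMSO library lay below every DMSO library.

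Among the lipid genes, Apoe, the apolipoprotein that carries cholesterol to lipoprotein receptors, fell most. It stood at 75.0, 64.3 and 67.5 CPM in DMSO and at 0.737, 0.954 and 0.585 CPM in TGFb1 + DMSO (log2 fold change -6.49 ± 0.15, adjusted p = 1.16e-38). Lpl, which frees fatty acids from lipoproteins, stood at 617, 626 and 624 CPM and fell to 114, 118 and 120.4 CPM (-2.41 ± 0.05, adjusted p = 5.93e-40). Lpl was thus 5.3-fold and Apoe 89.7-fold lower, with no overlap between the groups. Plin2, the coat protein of lipid droplets, moved the other way, from 88.6, 90.9 and 87.9 CPM to 128, 142 and 142 CPM (0.63 ± 0.048, adjusted p = 2.02e-16). Pparg stood at 18, 19.3 and 18.3 CPM in DMSO and at 15.4, 19.0 and 17.6 CPM in TGFb1 + DMSO, and these ranges overlapped. Its log2 fold change was -0.1 ± 0.11 (adjusted p = 0.454), so no change of Pparg passed the test beside the falls of Lpl and Apoe.

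Genes known to work with PPARG moved in both directions. Of the 17 partners and adipogenic regulators, all tested, 11 fell and 5 rose, with a median log2 fold change of -0.95. Rxra, the partner that binds DNA with PPARG, fell from 172 ± 3.51 to 75.1 ± 7.42 CPM (-1.2 ± 0.053, adjusted p = 5e-26). Klf15 fell by 2.61 on the log2 scale, Cebpd by 1.81 and Ebf1 by 1.54, all of them transcription factors of fat cell development. Of the 15 PPARG target genes, 8 were tested, and 6 of these fell and none rose (median -0.9). Pdk4, a kinase that spares glucose when fat is burnt, fell by 2.3 on the log2 scale, and Angptl4, an inhibitor of lipoprotein lipase, fell by 0.74. The untested target genes include Cd36, Plin1, Adipoq and Cidec, which had at most 4 counts in DMSO and in TGFb1 + DMSO.

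The droplet genes as a list were split, with 7 higher, 7 lower and 2 not past the test of 16 tested (median 0.09). Plin4, a perilipin like Plin2, fell from 37.6 ± 2.98 to 3.64 ± 0.853 CPM (-3.36 ± 0.13, adjusted p = 2.99e-28), opposite to Plin2. Mgll, the lipase that ends triglyceride breakdown, rose from 7.05 ± 1.33 to 16.8 ± 0.684 CPM (1.26 ± 0.14, adjusted p = 4.54e-10). Of the 16 tested genes for lipase maturation and lipoprotein receptors, 7 rose and 6 fell (median 0.11). Sort1, a sorting receptor that can bind lipoprotein lipase, fell from 72.7 ± 1.78 to 4.33 ± 0.624 CPM (-4.07 ± 0.11, adjusted p = 6.54e-34). Lrp8, a receptor for apolipoprotein E, rose by 2.07 ± 0.075 on the log2 scale (adjusted p = 8.04e-30). Of the 12 tested LXR target and cholesterol efflux genes, the group to which Apoe belongs, 6 rose and 6 fell (median -0.34). Abca1, which loads cholesterol onto apolipoproteins, fell by 1.43 and Arl4c rose by 3.0 on the log2 scale.

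The other alveolar fibroblast genes did not share 1 direction. Of 13 tested, 7 fell and 5 rose (median -0.84). Adh1, an alcohol dehydrogenase that can act on retinol, fell from 71.2 ± 1.94 to 0.277 ± 0.0609 CPM (-7.97 ± 0.25, adjusted p = 5.59e-20). Wnt2, a Wnt ligand, rose from 0.793 ± 0.449 to 4.2 ± 0.482 CPM (2.44 ± 0.24, adjusted p = 2.52e-11), and Mfap4, a microfibril protein, rose by 2.3 on the log2 scale. Of 11 tested genes of retinoid storage and use, 5 rose and 5 fell (median -0.26). In that list Stra6, the cell-surface carrier of retinol, rose by 6.08 ± 0.2 and Aldh1a1, which makes retinoic acid, fell by 5.37 on the log2 scale.

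**Figure D2:**
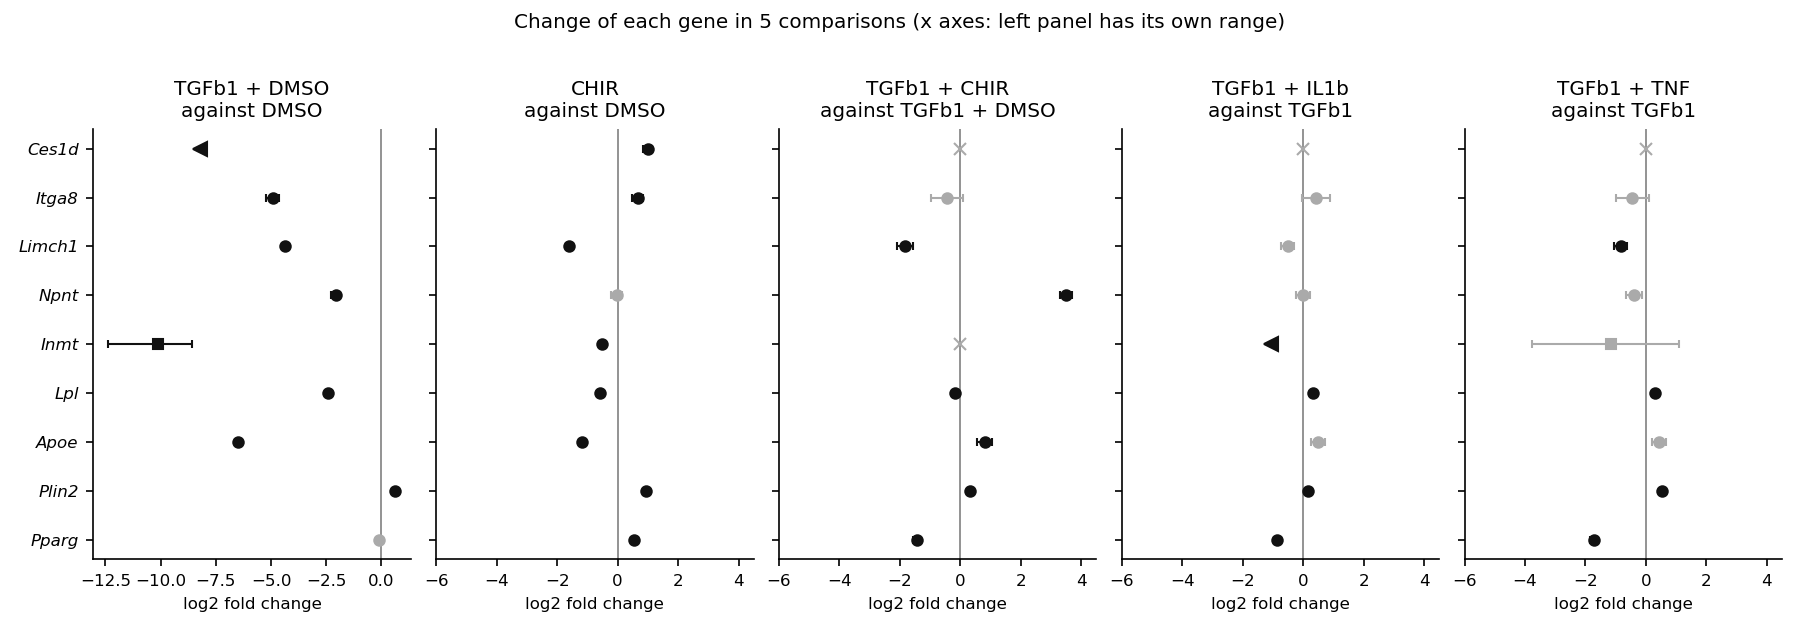
Log2 fold change (x axis, own range in the left panel) of each of the 9 genes (y axis) in 5 comparisons (panels). Circles show the edgeR value ± SE, left-pointing triangles a bound against 3 counts over a group at 0, squares a count ratio with its 95% interval, and crosses genes with no fold because both groups were at or under 3 counts; black marks passed the test and grey marks did not. The left panel holds 7 genes below 0, and the third shows Npnt alone at the far right.

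CHIR against DMSO, both without TGFb1, changed 8 of the 9 genes, 4 up and 4 down, in a table where 44.8% of genes were called (22.1% higher and 22.7% lower). Markers that fell together with TGFb1 were parted here: Ces1d and Itga8 rose while Inmt and Limch1 fell. Ces1d stood at 23.2, 21.2 and 20.9 CPM with CHIR, all above its DMSO libraries (log2 fold change 1.0 ± 0.15, adjusted p = 4.84e-07). Its relatives rose more: Ces1g went from 37.5 ± 1.74 to 122 ± 4.51 CPM (1.7 ± 0.077, adjusted p = 6.55e-25) and Ces1f from 1.82 ± 0.64 to 11.3 ± 0.579 CPM (2.64 ± 0.27, adjusted p = 5.68e-11). Itga8 stood at 18.8, 18.3 and 16.3 CPM with CHIR (0.66 ± 0.18, adjusted p = 0.00282). With DESeq2 that rise did not pass the threshold (0.67, adjusted p = 0.0875). Limch1 stood at 15.2, 13.8 and 11.9 CPM with CHIR (-1.59 ± 0.12, adjusted p = 7.59e-16), and Inmt at 28.5, 28.2 and 28.1 CPM (-0.51 ± 0.11, adjusted p = 0.000171). Npnt stood at 5.7, 5.13 and 5.8 CPM with CHIR, within the range of its DMSO libraries (-0.03 ± 0.18, adjusted p = 0.909).

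The lipid genes were also parted by CHIR. Pparg rose, with 24.4, 25.8 and 31.5 CPM (0.55 ± 0.11, adjusted p = 2.24e-05), and Plin2 rose, with 168, 160 and 185 CPM (0.94 ± 0.048, adjusted p = 1.38e-22). Lpl fell, with 408, 425 and 423 CPM (-0.57 ± 0.047, adjusted p = 7.12e-15), and Apoe fell, with 31.4, 31.9 and 28.6 CPM (-1.17 ± 0.094, adjusted p = 3.05e-15). For each of these 4 genes the CHIR libraries lay wholly on 1 side of the DMSO libraries. The share of all genes tested that were parted in this way is not given. Of the 8 PPARG target genes tested, 3 rose and 1 fell (median 0.17). Angptl4 rose from 27.3 ± 4.06 to 85.8 ± 6.3 CPM (1.65 ± 0.079, adjusted p = 8.33e-24), and Fabp5, a fatty acid carrier, fell by 2.27 on the log2 scale. Of the 17 partners and regulators, 6 rose and 3 fell, and Cebpd fell furthest, by 2.53. Of the 16 droplet genes 6 rose and 2 fell, and Mgll fell from 7.05 ± 1.33 to 2.21 ± 0.621 CPM (-1.67 ± 0.18, adjusted p = 9.76e-10). Of the 13 other alveolar fibroblast genes, 3 rose and 1 fell.

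Added to TGFb1, CHIR raised Npnt and lowered Pparg. In TGFb1 + CHIR against TGFb1 + DMSO, 3 of the 9 genes rose and 3 fell, and 43.3% of all genes were called (20.8% higher and 22.5% lower). Npnt stood at 14.7, 14.5 and 16.3 CPM with both agents against 1.44, 1.19 and 1.39 CPM with TGFb1 + DMSO. The log2 fold change was 3.5 ± 0.2 (adjusted p = 1.46e-20), which is 11.3-fold. All 3 libraries also lay above every DMSO and every CHIR library, so that Npnt was highest where both agents were present. Its receptor subunit Itga8 had 5, 2 and 11 counts in the same libraries, which is 0.281 CPM on average and overlaps the range of TGFb1 + DMSO (-0.43 ± 0.53, adjusted p = 0.557). Itgb1 was at 2666 ± 28.2 CPM. Wnt2 was also highest in these libraries, rising from 4.2 ± 0.482 to 74.2 ± 3.49 CPM (4.14 ± 0.15, adjusted p = 1.46e-23).

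Pparg stood at 7.41, 6.12 and 5.29 CPM in TGFb1 + CHIR against 15.4, 19.0 and 17.6 CPM in TGFb1 + DMSO (-1.45 ± 0.12, adjusted p = 1.57e-14). Limch1 fell further, to 0.519, 0.84 and 0.305 CPM (-1.84 ± 0.27, adjusted p = 1.17e-07). Plin2 rose to 173, 171 and 172 CPM (0.32 ± 0.048, adjusted p = 1.38e-07). The groups did not overlap for these genes, nor for Npnt, Apoe and Lpl, and the share of all genes tested that were so parted is not given. Apoe stood at 1.37, 1.63 and 1.02 CPM, or 37, 33 and 20 counts (0.81 ± 0.25, adjusted p = 0.00571). That rise did not pass the threshold with limma voom (adjusted p = 0.0862), with only these groups in the fit (0.0718) or against TGFb1 without DMSO (0.106). Lpl stood at 108, 106 and 94.2 CPM against 114, 118 and 120.4 CPM (-0.19 ± 0.051, adjusted p = 0.0015), and against TGFb1 without DMSO its direction turned (0.23, adjusted p = 0.000167). Ces1d had 0 counts in both groups, and Inmt had 0 counts in TGFb1 + CHIR and 3 in TGFb1 + DMSO, so neither has a fold.

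The genes around them moved in both directions. Of the 8 PPARG targets tested, 1 rose and 3 fell (median -0.37), and Angptl4 fell from 16.3 ± 0.544 to 7.73 ± 0.596 CPM (-1.09 ± 0.1, adjusted p = 5.49e-13). Of the 16 droplet genes, 9 rose and 3 fell (median 0.28), with Mgll at 43.8 ± 2.61 CPM (1.38 ± 0.12, adjusted p = 5.82e-12) and Dgat2, which makes triglyceride, at 11.5 ± 1.75 CPM (0.93 ± 0.14, adjusted p = 1.02e-07). Plin4 fell by 0.88 on the log2 scale, again opposite to Plin2. Of 16 lipase and receptor genes 2 rose and 8 fell, and Vldlr, a receptor that takes up apolipoprotein E, was among the risers (0.69 ± 0.046, adjusted p = 1.85e-18). In the same libraries the sorted surface genes were at their lowest and the endothelial list, through Kdr, at its highest, and the part of this in the Npnt and Pparg values was not tested.

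The difference between the CHIR effect with TGFb1 and without it was tested as an interaction, for which 41.2% of all genes were called (20.3% lower and the rest higher). It passed for 5 of the 9 genes. For Npnt the CHIR effect was larger with TGFb1 by 3.54 ± 0.27 on the log2 scale (adjusted p = 9.31e-16). For Pparg it turned from a rise to a fall, a difference of -2.0 ± 0.16 (adjusted p = 5.3e-15). For Apoe it turned from a fall to a rise, a difference of 1.98 ± 0.26 (adjusted p = 1.42e-08). For Lpl the fall was smaller with TGFb1, by 0.38 ± 0.069 (adjusted p = 9.78e-06), and for Plin2 the rise was smaller, a difference of -0.62 ± 0.068 (adjusted p = 7.12e-11). For Limch1 the effect was a fall in both settings, and the difference did not pass the test (-0.24 ± 0.31, adjusted p = 0.576). For Itga8 it did not pass either (-1.09 ± 0.56, adjusted p = 0.122), with few counts where TGFb1 was present, but passed without the second TGFb1 + DMSO library (-1.45, adjusted p = 0.0367) or the third TGFb1 + CHIR library (-1.93, adjusted p = 0.0153). Of the 8 PPARG targets tested, the difference was positive for 1 and negative for 3, and 4 did not pass (median -0.33). Angptl4 was among the negative ones (-2.74 ± 0.13, adjusted p = 5.19e-24). Of the 16 droplet genes it was positive for 5, with Mgll among them (3.05 ± 0.22, adjusted p = 2.43e-14), and negative for 3.

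**Figure D3:**
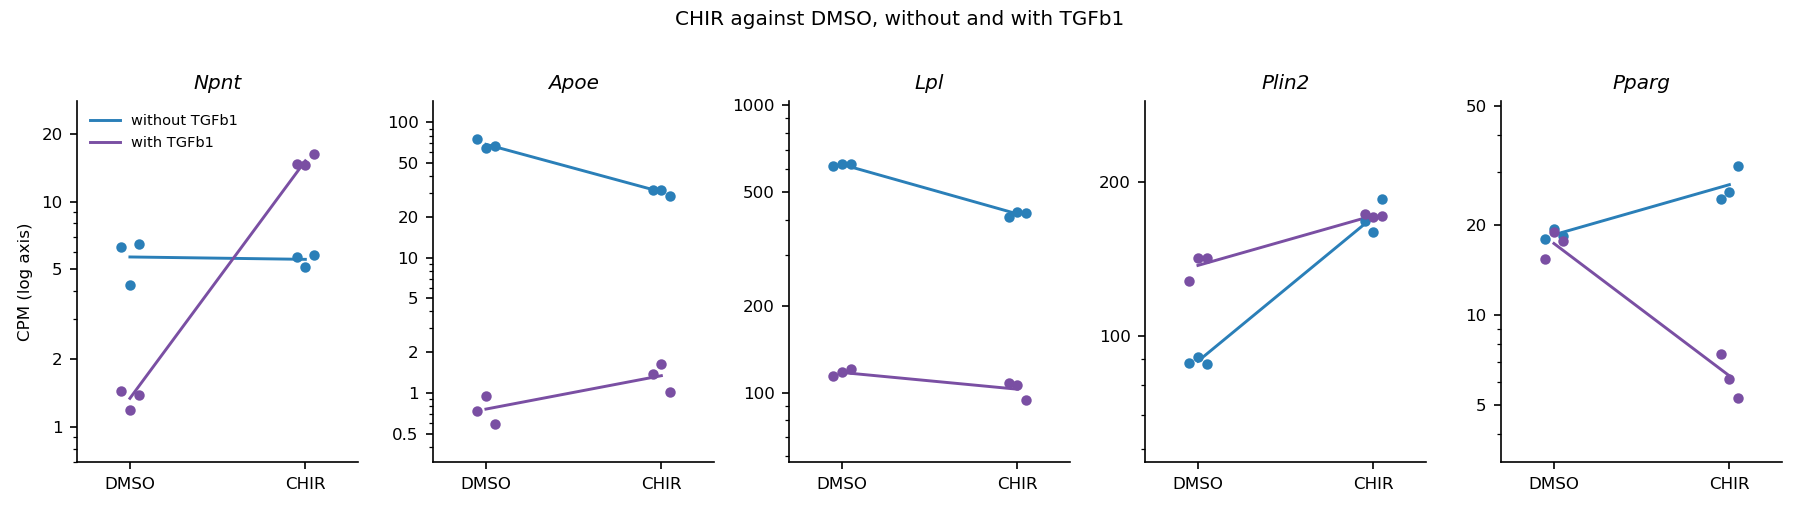
Level in CPM (y axis, log scale, own range per panel) of the 5 genes whose CHIR effect differed with TGFb1, in libraries given DMSO or CHIR (x axis). Points are libraries, and lines join the means of 3 libraries without TGFb1 (blue) and with TGFb1 (purple). The lines cross for Npnt, part for Pparg and meet for Plin2 at about 171 and 172 CPM.

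Seen from the CHIR libraries, TGFb1 lowered Ces1d, Itga8, Limch1, Inmt, Lpl and Apoe, as it had from DMSO, and it also lowered Pparg and raised Npnt. In TGFb1 + CHIR against CHIR, 7 of the 9 genes fell and 1 rose, in a table with 66.2% of genes called (33.8% higher and 32.3% lower). Ces1d was at least 485-fold and Inmt at least 630.2-fold lower, each against 3 counts over the group. The log2 fold change was -6.02 ± 0.31 for Itga8, -4.62 ± 0.21 for Limch1, -4.51 ± 0.15 for Apoe and -2.03 ± 0.051 for Lpl. Of the 9 genes, 5 fell at least 16-fold, which 2.12% of all genes tested did, again a description only. Pparg fell from 27.2 ± 3.74 to 6.28 ± 1.07 CPM (-2.1 ± 0.12, adjusted p = 2.32e-21). From DMSO it had not passed the test, and the difference between these effects is the interaction given above. Npnt rose from 5.54 ± 0.358 to 15.2 ± 0.992 CPM (1.46 ± 0.17, adjusted p = 2.22e-10), where from DMSO it had fallen. Plin2 was at 171 ± 12.6 CPM with CHIR and 172 ± 1.36 CPM with both agents (0.01 ± 0.047, adjusted p = 0.879). This comparison and the first share no library, while the 2 CHIR comparisons use the same libraries as these.

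IL1b and TNF, each added to TGFb1 and compared with TGFb1 alone, lowered Pparg and raised Plin2. With IL1b 34.6% of all genes were called (17.2% higher and 17.4% lower), and with TNF 56.6% (27.7% higher and 28.8% lower). Of the 9 genes, 2 rose and 2 fell with each cytokine. Both comparisons use the same TGFb1 libraries. Pparg stood at 17.1, 18 and 16.6 CPM with TGFb1, at 8.58, 10.4 and 9.78 CPM with TGFb1 + IL1b and at 4.39, 5.44 and 5.74 CPM with TGFb1 + TNF. The 3 groups did not overlap, and the log2 fold changes were -0.85 ± 0.12 with IL1b (adjusted p = 2.95e-08) and -1.73 ± 0.12 with TNF (adjusted p = 1.66e-17). Plin2 stood at 137, 142 and 145 CPM with TGFb1, at 154, 161 and 162 CPM with IL1b (0.17 ± 0.048, adjusted p = 0.00405) and at 205, 206 and 200.5 CPM with TNF (0.53 ± 0.047, adjusted p = 4.09e-14). TGFb1 + TNF thus held the highest Plin2 level of the 7 groups and, with TGFb1 + CHIR, the lowest Pparg levels. The ranges of those 2 groups overlapped for Pparg.

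Lpl stood at 82.2, 94.5 and 85.3 CPM with TGFb1, at 107, 107 and 114 CPM with IL1b (0.32 ± 0.051, adjusted p = 1.16e-06) and at 102, 116 and 104 CPM with TNF (0.29 ± 0.051, adjusted p = 2.2e-06). Set against TGFb1 + DMSO instead, both turned to falls, -0.11 with IL1b (adjusted p = 0.0885) and -0.13 with TNF (adjusted p = 0.0226), so their direction depends on which TGFb1 group is the control. Limch1 stood at 1.92, 2.78 and 1.55 CPM with TGFb1 and at 1.23, 1.1 and 1.26 CPM with TNF (-0.83 ± 0.22, adjusted p = 0.00107). Without the second TGFb1 library, which was the highest of its group, that fall did not pass the threshold (-0.55, adjusted p = 0.0557). With IL1b Limch1 stood at 1.44, 1.76 and 1.29 CPM (-0.51 ± 0.21, adjusted p = 0.0562), a fall that passed with DESeq2 (-0.53, adjusted p = 0.0362). Inmt had 4, 2 and 0 counts with TGFb1 and 0 in each library with IL1b, at least 2.07-fold lower (adjusted p = 0.0181), a call on 6 counts that 4 of the alternatives ended (adjusted p of 0.0513 to 0.133). Itga8, Npnt and Apoe stayed at 0.249 to 0.457, 1.16 to 1.55 and 0.963 to 1.35 CPM in these 3 groups, and none passed the test. Against TGFb1 + DMSO, Apoe was higher with IL1b (0.82, adjusted p = 0.00408) and with TNF (0.76, adjusted p = 0.0058).

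Compared directly, TGFb1 + IL1b had more Pparg (0.89 ± 0.13, adjusted p = 7.73e-08) and less Plin2 (-0.36 ± 0.047, adjusted p = 4.8e-09) than TGFb1 + TNF. The other 7 did not pass the test, and 47.6% of all genes were called (24.7% higher and 22.8% lower). Among the PPARG targets, 5 of 8 were higher with IL1b and 1 lower (median 0.45), with Pdk4 at 4.95 ± 0.567 against 2.84 ± 0.7 CPM (0.8 ± 0.14, adjusted p = 3.57e-06). The LXR targets had 8 of 12 higher and 1 lower (median 0.75), with Abca1 at 97.3 ± 1.89 CPM with IL1b and 31.6 ± 1.54 CPM with TNF (1.62 ± 0.055, adjusted p = 1.78e-30). Against TGFb1, TNF lowered 8 of these 12 genes and IL1b 5. Ces1g was at 3.17 ± 0.378 CPM with IL1b and 0.269 ± 0.0751 CPM with TNF (3.53 ± 0.23, adjusted p = 1.79e-18), while Ces1d had 0 counts in both. Against TGFb1, IL1b raised 3 of the 8 PPARG targets tested and lowered 1 (median 0.22). TNF raised 2 of them and lowered 4 (median -0.71). Angptl4 was among those that rose with both, by 0.73 ± 0.087 with IL1b and by 1.0 ± 0.086 with TNF, while Pparg fell. Dgat2 rose with both as well, by 1.79 ± 0.13 and 1.44 ± 0.14, and Plin4 fell with both, by 1.08 and 2.24 on the log2 scale. Markers of cell type moved in these comparisons too. Of the 6 fibroblast markers, 4 fell and 1 rose with IL1b (median -0.34), and 5 fell and 1 rose with TNF (median -1.32). Pdgfra had log2 fold changes of -1.01 and -2.47, and Dcn, which for TNF was chosen after its values were seen, of 1.1 and 1.25. Of the 6 mural genes tested, 3 fell and 1 rose with IL1b, and 5 fell and 1 rose with TNF, with Pdgfrb at -2.04 and Cspg4 at 1.27 for TNF. The part of these markers in the Pparg values was not tested.

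**Figure D4:**
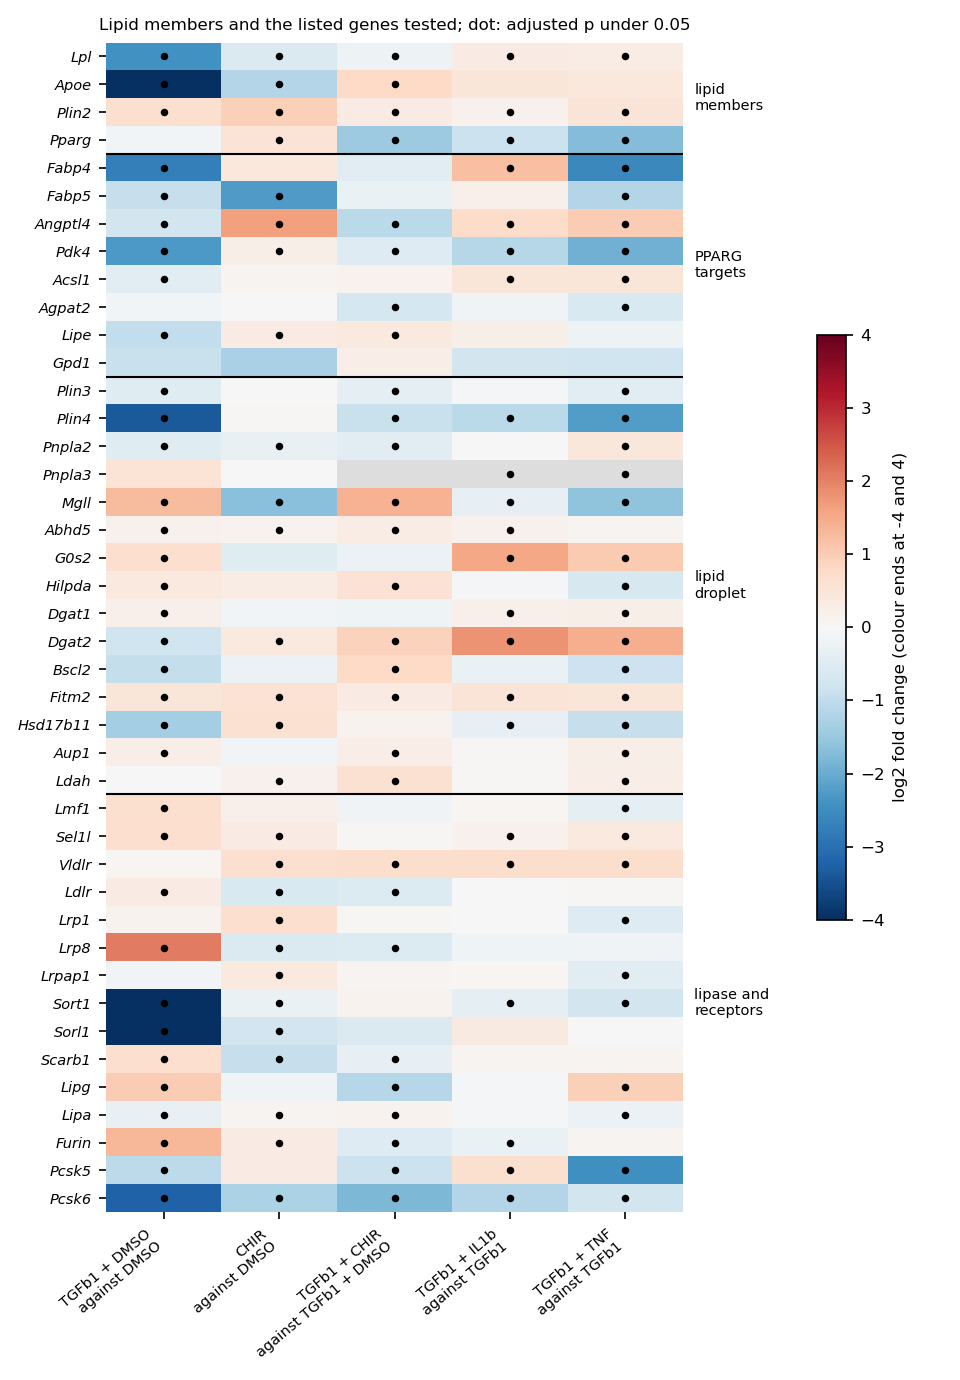
Log2 fold changes (colour, ending at -4 and 4) of the 4 lipid members and the 38 other tested genes of 3 fixed lists (rows) in 5 comparisons (columns). Dots mark an adjusted p under 0.05, and grey cells have no fold because at least 1 of the groups compared was at or under 3 counts. In the last column Pparg, Pdk4 and Plin4 are blue while Plin2, Angptl4 and Dgat2 are red.

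The solvent itself was compared between TGFb1 + DMSO and TGFb1, where 6.13% of all genes were called (2.33% higher and 3.80% lower). Of the 9 genes Lpl alone passed, at 114, 118 and 120.4 CPM against 82.2, 94.5 and 85.3 CPM (0.43 ± 0.051, adjusted p = 4.96e-08). The groups did not overlap. Pparg was at 17.3 ± 1.81 and 17.3 CPM on average, and Plin2 at 138 ± 8.3 and 141 CPM. The count of genes called in this comparison fell from 993 to 646 without the first TGFb1 library.

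Over the 21 libraries, the genes most like each member were sought among 9955 genes by Pearson's r of log2 CPM. This is a description in which the points share treatment groups, and the split between libraries with and without TGFb1 alone can give a high r. Ces1d was most like Sntb2 (0.994) and Slc5a3 (0.993), Inmt like Zfp36l2 (0.991) and Sh3d19 (0.99), and Itga8 like St3gal1 (0.975) and Tnxb (0.973). Limch1 was most like Sh3bp5 (0.983) and Cbx7 (0.982), Lpl like Cds2 (0.991) and Mtss1 (0.988), and Apoe like Pawr (0.991) and Clu (0.987). The genes that departed from this split had lower values: Npnt was most like Hacd2 (0.964) and Rgma (0.958), Pparg like Col14a1 (0.971) and Pcdh18 (0.966), and Plin2 like Pdrg1 (0.943) and Ttc39b (0.94). Col14a1, a collagen that marks adventitial fibroblasts, fell as Pparg did with CHIR, IL1b and TNF on top of TGFb1, with log2 fold changes of -2.03, -0.79 and -2.96. Other genes of the adventitial list did not all do so: Cd34 had -0.71, 0.89 and 2.66, and with IL1b 1 of the 6 tested rose and 2 fell (median 0.06).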

How the data were processed

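The authors deposited raw whole-number counts per gene for 21 libraries (52636 genes), and the single-library tables equalled the columns of the full table. The submitters' processing notes name the builds GRCh38 and GRCm38 without a role. The aligner, the counter and the strand setting were not given in the sources. Symbols and positions came from GENCODE M21 (52489 identifiers matched) and promoter windows from RefSeq. Groups follow the labels, and replicate numbers follow accession order. Statements that groups did not overlap describe the ranges of their libraries, without the share of all genes tested that were so parted.

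Genes passing filterByExpr (16197) were fitted in edgeR 4.0.16 (R 4.3.3), with TMM factors and 1 coefficient for each of the 7 groups, and tested by its robust quasi-likelihood F-test. P-values were Benjamini-Hochberg adjusted over all genes tested, with a threshold of 0.05. The SE was the log2 fold change divided by the square root of F. The common biological coefficient of variation was 0.0581. Replicates differed beyond sampling noise in every pair (chi-square per degree of freedom 3.107 to 9.28). Where a group had 0 counts, the fold is a bound against 3 counts over the group, and with 1 to 3 counts it is a ratio with an exact 95% interval. The fit was also run on simulated data in which few genes differed between groups, unlike these data, and no result here rests on it.

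The members and lists were chosen with earlier results of these data known. The text names all 9 members, some of their close paralogs and the 2 genes most correlated with each member. From each list in a comparison, it names up to 4 genes past the threshold. Those 4 had the largest absolute log2 fold changes among called genes averaging 2 log2 CPM or more. The alternatives tried were DESeq2 1.42.0, voom in limma 3.58.1, RLE size factors, filtering more strictly or not at all, fitting only the groups compared, swapping the TGFb1 control and leaving out each replicate.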

Additional observations from a re-analysis of the deposited data

Results flagged for a closer look

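For 5 of the 9 genes, the CHIR effect differed between cells given TGFb1 and cells without it, by the test of the difference itself (edgeR quasi-likelihood F-test). The same test called 41.2% of all genes tested. Ces1d and Inmt had a group at or under 3 counts and were given no value. Npnt did not pass the test with CHIR alone and rose when CHIR was added to TGFb1, a difference of 3.54 on the log2 scale (adjusted p = 9.31e-16). Pparg rose with CHIR alone and fell with CHIR on top of TGFb1, a difference of -2.0 (adjusted p = 5.3e-15). Apoe fell with CHIR alone and rose from a low level on top of TGFb1, a difference of 1.98 (adjusted p = 1.42e-08). That rise was not called with limma voom, with only these groups in the fit or against TGFb1 without DMSO. Plin2 rose in both settings, less so with TGFb1, a difference of -0.62 (adjusted p = 7.12e-11). Lpl fell in both settings, less so with TGFb1, a difference of 0.38 (adjusted p = 9.78e-06). Against TGFb1 without DMSO, its change with CHIR on top of TGFb1 turned to a rise (0.23).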

How the results depend on the processing

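Of 734 values of the members under the alternatives, 701 kept their direction and side of the threshold, 9 lost the call, 10 gained it and 14 turned. The tally holds called members and some uncalled ones. An alternative under which a gene was filtered out or had no adjusted p is left out of it. The turned values of called genes were those of Lpl with the other TGFb1 control, at 0.23 for CHIR on TGFb1, -0.11 for IL1b and -0.13 for TNF. The other turns were of values that had passed no test. With a replicate left out, Npnt with CHIR alone ran from -0.21 to 0.07, turning without DMSO replicate 1 (0.05), DMSO replicate 3 (0.07) or CHIR replicate 2 (0.02). Plin2 in TGFb1 + CHIR against CHIR was -0.02 with DESeq2, RLE factors or only these groups and -0.03 with the stricter filter. It was 0.00 without CHIR replicate 1 and -0.03 without CHIR replicate 2, and its highest value with a replicate left out was 0.07. Itga8 with CHIR on TGFb1 ran from -1.28 to 0.03, turning without TGFb1 + DMSO replicate 1. The Limch1 interaction ran from -0.61 to 0.01, turning without TGFb1 + CHIR replicate 3. The cause of these turns was not tested. The number of members lower with IL1b was 1 in place of 2 with limma voom, with only these groups and with TGFb1 + DMSO as control. With a replicate left out, it ran from 1 (without TGFb1 replicate 1) to 3 (without TGFb1 replicate 3). The number lower with TNF ran from 1 (without TGFb1 replicate 2) to 2, and the number higher in IL1b against TNF from 1 to 2 (without TGFb1 + IL1b replicate 1). The genes called between TGFb1 + DMSO and TGFb1, 993 with all libraries, ran from 646 (without TGFb1 replicate 1) to 884. Limch1 with IL1b passed without TGFb1 replicate 3 (-0.66) or TGFb1 + IL1b replicate 2 (-0.64), and Apoe with TNF passed without TGFb1 + TNF replicate 2 (0.60). Inmt with IL1b lost its call without TGFb1 replicate 1 (-3.28) or TGFb1 + IL1b replicate 2 (-4.16), fitted values that rest on a group at 0. Depth limits Ces1d, Inmt, Itga8 and Apoe in libraries with TGFb1, where counts were few or 0. No paired analysis was possible because the labels give no replicate numbers shared between groups.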
